A study of Homo sapiens with 4 samples.

Results

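HLA class I molecules and the genes that load and induce them were followed across 4 expression arrays of Hs746T cells, an established gastric carcinoma line with a MET exon 14 skipping mutation and an amplified MET gene. The genes were HLA-B, HLA-C, HLA-E, HLA-F, HLA-G, B2M, TAP1, TAP2 and NLRC5, taken by name. These 9 genes were among 19740 named genes on the array and had 13 of its 34127 probes. Cells received the solvent DMSO, the small-molecule MET kinase inhibitor PHA665752, a scrambled control siRNA (sc siRNA) or an siRNA against MET (MET siRNA), with 1 array per condition and all 4 on 1 slide. The DMSO and PHA665752 cells were not transfected, whereas both siRNA groups went through transfection, and for the arrays the inhibitor's dose and duration are not given in the sources used here. All cells were of the same line, so all carried the MET alteration. With 1 array per condition there was no spread between cultures and no test, and the precision of every value below is limited by that number.

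HLA class I molecules are displayed on nearly all nucleated cells and present peptides from proteins made inside the cell to CD8+ T cells. Each consists of a heavy chain, encoded by an HLA gene, and the invariant light chain B2M. Peptides are cut by the proteasome, pumped into the endoplasmic reticulum by the TAP1/TAP2 transporter and loaded there with the help of tapasin and other chaperones. NLRC5 is a transactivator of class I genes, and interferons induce most of the pathway through transcription factors such as those of the IRF family. Loss of class I from tumour cells is a known route by which they escape T cells, whereas NK cells recognise cells that lack it.

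The promoters of 7 of the 9 genes were in the RefSeq table used here (GRCh38.p14), and HLA-E and NLRC5 were not matched. Those printed are the 250 bases before the start of the heavy chains HLA-B, HLA-C and HLA-F, of B2M and of both transporter chains, so that each part of the molecule and of the transporter is shown. They run 5′ to 3′ on the strand of the gene. Capitals mark matches on either strand to any of 4 motifs, whose letters were chosen with these genes in view: the core of an interferon response element (TTTCNNTT), the core of an NF-kappa-B site (which begins with GGG, ends with CC and has a T between), the Y box CCAAT and the core of the X2 box TGACG.
HLA-B, chr6:31357180-31357429, minus strand: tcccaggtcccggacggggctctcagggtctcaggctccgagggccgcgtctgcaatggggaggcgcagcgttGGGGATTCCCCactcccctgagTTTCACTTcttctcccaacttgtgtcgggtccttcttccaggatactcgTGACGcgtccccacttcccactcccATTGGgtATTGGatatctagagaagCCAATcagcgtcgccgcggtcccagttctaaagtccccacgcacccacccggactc
HLA-C, chr6:31272093-31272342, minus strand: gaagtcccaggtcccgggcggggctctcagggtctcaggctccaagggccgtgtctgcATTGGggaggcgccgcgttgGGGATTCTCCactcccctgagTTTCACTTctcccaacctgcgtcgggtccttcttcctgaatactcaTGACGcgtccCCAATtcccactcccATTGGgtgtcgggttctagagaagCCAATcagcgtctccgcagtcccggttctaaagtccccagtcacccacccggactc
HLA-F, chr6:29723184-29723433, plus strand: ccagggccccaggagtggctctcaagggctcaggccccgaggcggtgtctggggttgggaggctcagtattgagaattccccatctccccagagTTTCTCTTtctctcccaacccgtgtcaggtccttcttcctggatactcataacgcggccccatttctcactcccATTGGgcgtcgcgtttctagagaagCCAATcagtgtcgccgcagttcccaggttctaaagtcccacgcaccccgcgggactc
B2M, chr15:44711267-44711516, plus strand: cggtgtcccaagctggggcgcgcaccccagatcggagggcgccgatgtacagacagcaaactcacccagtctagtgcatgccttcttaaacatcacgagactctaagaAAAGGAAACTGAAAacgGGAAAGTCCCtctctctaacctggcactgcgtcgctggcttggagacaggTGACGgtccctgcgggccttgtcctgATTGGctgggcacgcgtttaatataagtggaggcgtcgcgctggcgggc
TAP1, chr6:32853705-32853954, minus strand: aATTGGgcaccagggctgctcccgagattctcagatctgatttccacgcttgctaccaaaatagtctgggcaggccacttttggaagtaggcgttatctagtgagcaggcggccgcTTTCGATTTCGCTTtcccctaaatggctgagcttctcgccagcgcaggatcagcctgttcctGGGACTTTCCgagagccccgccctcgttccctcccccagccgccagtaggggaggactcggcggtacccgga
TAP2, chr6:32838740-32838989, minus strand: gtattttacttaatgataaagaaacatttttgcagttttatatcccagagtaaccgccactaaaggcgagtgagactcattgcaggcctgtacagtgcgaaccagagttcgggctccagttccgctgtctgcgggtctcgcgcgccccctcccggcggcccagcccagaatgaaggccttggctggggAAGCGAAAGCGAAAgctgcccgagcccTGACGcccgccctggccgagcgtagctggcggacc

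HLA-B, HLA-C and B2M each held all 4 motifs in this window, as did 0.202% of the 35116 promoter windows of the same length in the table. The interferon response element core was in 6 of the 7 genes matched and in 20.3% of all windows. In TAP1, TAP2 and B2M it was found at 2 places that adjoin or overlap, as the longer runs of capitals show. The NF-kappa-B core was in 5 of the 7 genes (19.7% of all windows), the letters of the Y box, at any place, in 6 (32% of all windows) and the X2 box core in 4 (21.2% of all windows). TAP2 had neither the NF-kappa-B core nor the Y box. HLA-F lacked the NF-kappa-B core and the X2 box core. HLA-G had an NF-kappa-B core and the letters CCAAT in 1 of its 3 windows and no match in the others. Counted from the start, this CCAAT lay at -56 to -52, where HLA-B and HLA-C also had CCAAT. HLA-B (-81 to -77), HLA-C (-80 to -76) and HLA-F (-82 to -78) held a further match, ATTGG, at a place where HLA-G had none. A second TAP1 window held no match. A match of letters is a description of the sequence and does not show that a factor bound there, and the heavy chain promoters are themselves similar to each other.

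Signals are linear spot intensities after background subtraction. Before arrays were compared, the log2 signal was set against the 75th percentile of its own array, which was a signal of 990.1 (DMSO), 853 (PHA665752), 831 (sc siRNA) and 858 (MET siRNA). Ratios are log2 differences of these scaled values, and a gene was called past 2-fold where its ratio was above 1 or below -1. On the MET siRNA array 61.1% of probes were well above background, against 67.4% to 68.2% on the other arrays. The lowest signal so marked was 17.4 on the MET siRNA array and 10.2 to 12.3 on the others. Probes spotted 10 times gave a noise between spots of 0.0779 for a log2 ratio, which does not cover differences between cultures. MET itself had signals of 221451 (DMSO), 100492 (PHA665752), 190010 (sc siRNA) and 77854 (MET siRNA). Its log2 ratio was -1.33 for MET siRNA over sc siRNA and -0.93 for PHA665752 over DMSO, so the level of the targeted gene was lower on the array labelled MET siRNA, by more than 2-fold. Of the epithelial markers, EPCAM and KRT18 were well above background on all 4 arrays and KRT20 on none, while the epithelial cadherin CDH1 was well above background on 3 arrays with signals of only 10.4 to 33.0. Of 12 leukocyte markers, 6 were well above background on every array and 3 on none. Those on every array included the pan-leukocyte gene PTPRC, with signals of only 22.7 to 37.8, the B cell gene CD79A with 1502 to 1724 and the macrophage marker CD68 with 7212 to 12170, while CD3E and MS4A1 were among those on none. The summed signal of the list, in multiples of the 75th percentile of the array, was 9.69 and 10.6 on the untransfected arrays and 16.4 and 16.3 on the siRNA arrays. CD68, the brightest of the list, also had its highest log2 ratio for sc siRNA over DMSO (0.90), whereas the median of the list was 0.05. What part the leukocyte markers had in the class I values was not tested.

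Of the 13 class I probes, 12 were well above background on every array. The remaining probe, a TAP2 probe for the transcript NM_018833, was well above background on none and gave no ratio. For each gene the brightest probe with a value on every array stood for the gene, and other probes are described where they differed. Because class I heavy chain genes are closely similar and the probe sequences were not used here, a probe's signal may include other class I transcripts. RNA came from whole cultures, in which fewer cells of a kind and less RNA per cell cannot be told apart.

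**Figure D1:**
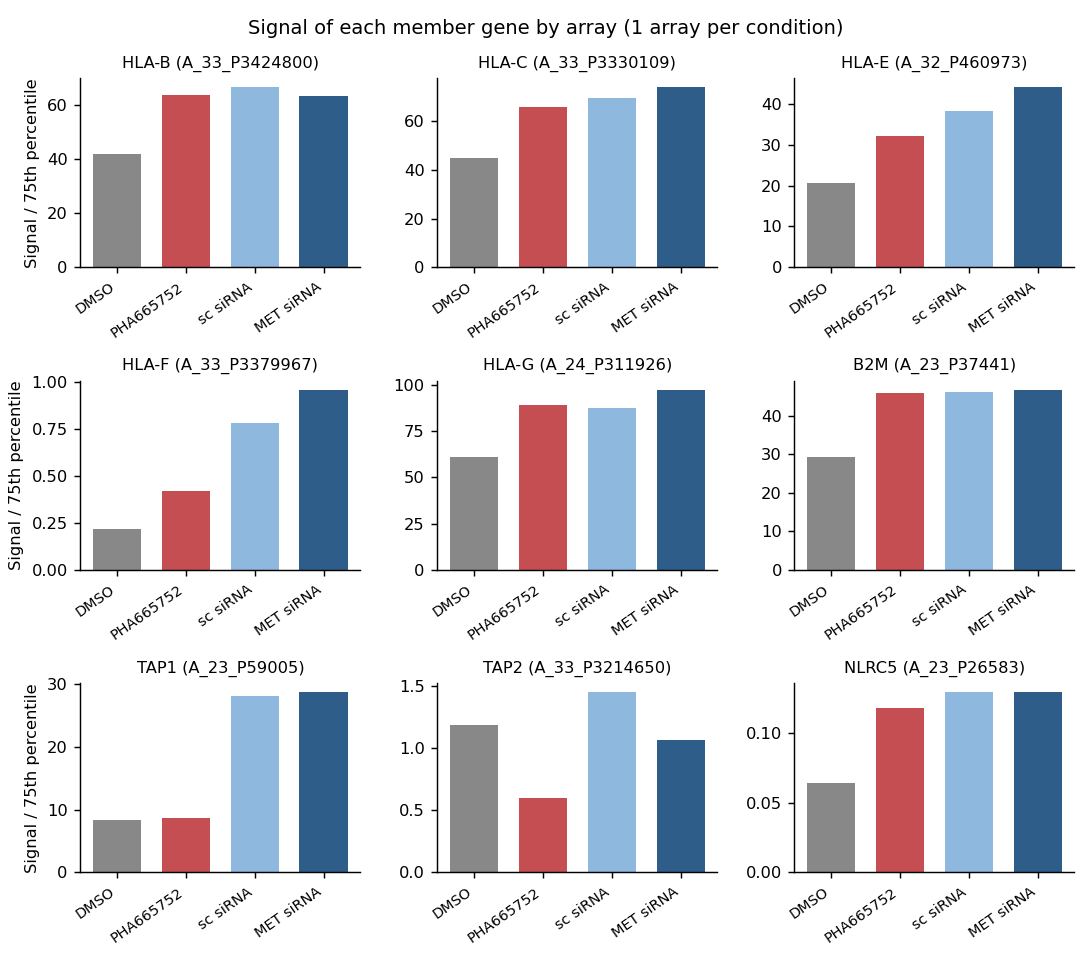
Signal of each class I gene on the 4 arrays, by its standing probe, in multiples of the 75th percentile of its array, with 1 bar per array. For the heavy chains, B2M and NLRC5 the DMSO bar was the lowest, TAP1 separated the siRNA arrays from the untransfected ones, and TAP2 was lowest with PHA665752.

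HLA-B, a classical heavy chain, had signals of 41468 (DMSO), 54187 (PHA665752), 55129.9 (sc siRNA) and 54325 (MET siRNA). Its level was lowest on the DMSO array, and after scaling the other 3 arrays lay within 0.07 of each other on the log2 scale (up to 0.37 under other scalings). The log2 ratio was 0.60 for PHA665752 over DMSO, -0.07 for MET siRNA over sc siRNA and 0.66 for sc siRNA over DMSO. The second HLA-B probe (A_33_P3379947), for the same transcript NM_005514, gave 0.55, 0.13 and 0.66, so the probes differed in sign in the MET siRNA pair. HLA-C, the other classical chain and a main ligand of NK cell receptors, had signals of 44237, 56095, 57859.5 and 63330.0 in the same order of arrays. Its ratios were 0.56, 0.08 and 0.64, again with DMSO lowest and a range of 0.17 over the other arrays.

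Among the non-classical chains, HLA-E presents leader peptides of other class I chains to the NK receptor NKG2A. Its signals were 20360.4 (DMSO), 27360.1 (PHA665752), 31725 (sc siRNA) and 37728 (MET siRNA). They were ordered the same way as for HLA-C, with ratios of 0.64 for the inhibitor pair, 0.20 for the MET siRNA pair and 0.89 for the control pair. HLA-G, which is best known from the placenta, where it restrains NK cells, had signals of 60189.5, 75937, 72589 and 83393 and ratios of 0.55, 0.15 and 0.52. These signals were the highest of the class I probes, but signals of different probes do not rank transcripts, and an HLA-G probe may also catch classical chains.

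HLA-F, a non-classical chain that can reach the surface without peptide, was read by 2 probes that disagreed in size. The probe for NM_001098478, which stood for the gene, had signals of 216 (DMSO), 359 (PHA665752), 647 (sc siRNA) and 820.1 (MET siRNA). Its ratios were 0.94, 0.30 and 1.83, the last past 2-fold and the highest of the class I genes in the control pair. The much brighter probe for NM_018950 had signals of 11728, 18251, 16679 and 19970.2. It gave 0.85 with the inhibitor and 0.76 in the control pair, and its MET siRNA spot was marked as an outlier, so that the ratio there (0.23 with the marked spot) was not used. Both probes were lowest with DMSO, but only the dimmer one was past 2-fold in the control pair.

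B2M was the only class I gene with repeated spots, 10 per array, of which 9 were usable with PHA665752. Its signal, the geometric mean over spots, was 28993 (DMSO), 39097 (PHA665752), 38369 (sc siRNA) and 40059 (MET siRNA). Spots of the DMSO array ranged from 26790 to 30821 and did not overlap those of any other array, the lowest of which was 36506. The log2 ratio was 0.65 ± 0.024 (SE between spots) for PHA665752 over DMSO, 0.02 ± 0.021 for MET siRNA over sc siRNA and 0.66 ± 0.022 for sc siRNA over DMSO. These errors hold for spots of 1 culture each. After scaling, the 3 arrays other than DMSO lay within 0.03 of each other, but within 0.28 when scaled on the median of the probes well above background and 0.18 under quantile normalization.

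TAP1 and TAP2, the 2 chains of the peptide transporter, differed over the arrays. TAP1 had signals of 8337 (DMSO), 7363 (PHA665752), 23330.2 (sc siRNA) and 24619 (MET siRNA). Both siRNA arrays were far above both untransfected arrays, with ratios of 1.74 for sc siRNA over DMSO, 0.03 for MET siRNA over sc siRNA and 0.04 for PHA665752 over DMSO. TAP2, read by the probe for NM_000544, had signals of 1176, 509, 1205 and 914. It was lowest with PHA665752, and its ratio of -0.995 for PHA665752 over DMSO was just inside the 2-fold limit. In the MET siRNA pair it was -0.45, the lowest of the 9 genes, and in the control pair 0.29. TAP2 was the only gene of the 9 below 0 in both MET-directed pairs, although TAP1 was too when arrays were scaled on the 50th percentile (-0.21 and -0.0023) or on the median of the probes well above background (-0.06 and -0.27).

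NLRC5 was dim. Its standing probe had signals of 63.1 (DMSO), 100.4 (PHA665752), 107 (sc siRNA) and 111 (MET siRNA), and ratios of 0.88, 0.00 and 1.02. The ratio in the control pair was just past 2-fold, and inside the limit under 3 of the alternatives (0.92 with the 50th percentile and quantile normalization, 0.65 with normexp). A second NLRC5 probe had signals of 204, 161, 228 and 228, but its DMSO spot was marked as an outlier. With the marked spot the ratio was -0.14 for PHA665752 over DMSO and 0.43 for sc siRNA over DMSO, so the NLRC5 probes disagreed in direction for the inhibitor.

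**Figure D2:**
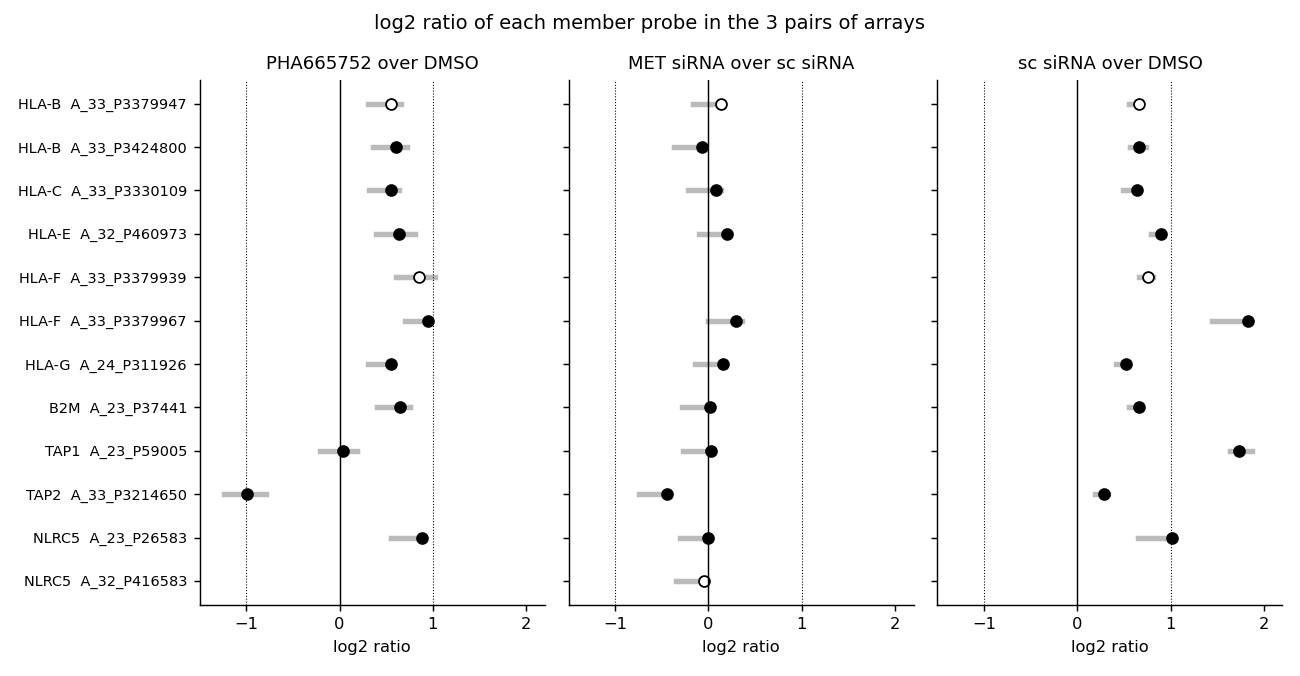
Log2 ratio of each class I probe with a ratio in the 3 pairs of arrays, with the 2-fold limits drawn. Filled points are standing probes, open points are the other probes, and grey bars span the values over the alternatives. The heavy chains, B2M and NLRC5 lay above 0 for PHA665752 over DMSO and for sc siRNA over DMSO, and near 0 for MET siRNA over sc siRNA, where the sign of most of them turned when arrays were scaled on the median of the probes well above background.

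No class I gene was past 2-fold with PHA665752, where 21.1% of the 14322 genes compared were past 2-fold, 13.1% higher and 8.04% lower. With MET siRNA none was past 2-fold either, where 2.73% of 13647 genes were, 2.04% higher and 0.696% lower. For sc siRNA over DMSO 3 of the 9 genes (HLA-F, TAP1 and NLRC5) were past 2-fold higher and none lower (2 without NLRC5 under 3 alternatives), where 4.05% of 14274 genes were past 2-fold, 2.89% higher and 1.16% lower. The calls of HLA-F and NLRC5 rest on their dimmer probes. Their brighter probes were inside the limit, at 0.76 for HLA-F and 0.43 for NLRC5 with its marked DMSO spot. With PHA665752 8 of the 9 were above 0, against 54.9% of all genes, with MET siRNA 7 of 9, against 47% of all genes, and for sc siRNA over DMSO all 9, against 48.5%. The median ratio of the 9 genes was 0.60 with PHA665752 (0.07 over all genes), 0.03 with MET siRNA (-0.02 over all genes) and 0.66 for sc siRNA over DMSO (-0.01 over all genes). The MET siRNA median turned below 0 under 2 of the other scalings.

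Read against all genes of the same pair, the 5 heavy chains and B2M stood higher in the control pair than in the inhibitor pair. The ratios themselves were alike in size for HLA-B, HLA-C, HLA-G and B2M, whereas those of HLA-E and the standing probe of HLA-F were higher in the control pair. With PHA665752 all 6 genes had ratios of 0.55 to 0.94, which lay above 74.0% to 85.6% of all genes. For sc siRNA over DMSO they had ratios of 0.52 to 1.83, above 91.8% to 99.0% of all genes. With MET siRNA they ranged from -0.07 to 0.30, above 41.8% to 85.7% of all genes. TAP1 lay above 47.4% of genes with PHA665752, 57.9% with MET siRNA and 98.9% in the control pair, and TAP2 above 8.11%, 5.82% and 82.6%.

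**Figure D3:**
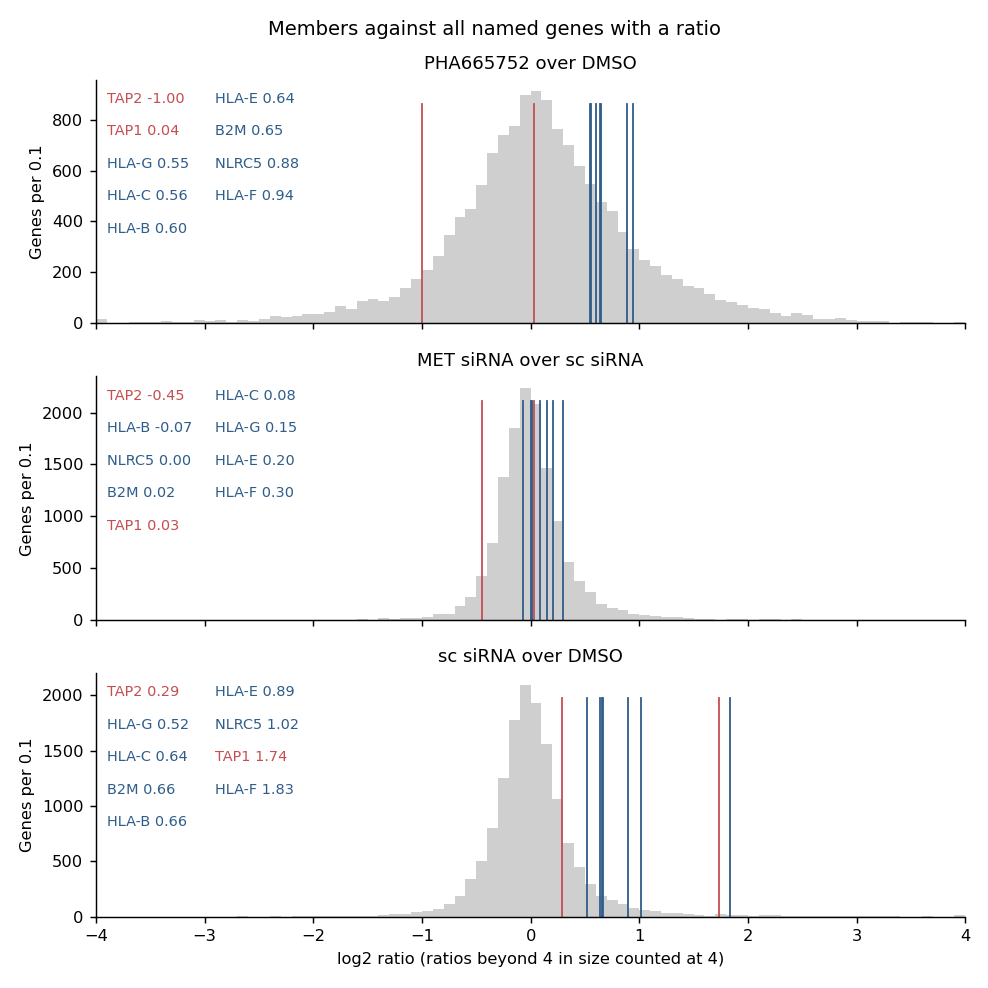
Distribution of the log2 ratios of all genes compared in each pair, with the class I genes marked. In the inhibitor pair the distribution was wide and most class I genes lay in its upper part, whereas in the control pair it was narrow and the same genes lay towards its upper end.

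The inhibitor pair and the control pair share the DMSO array, and the control pair and the MET siRNA pair share the sc siRNA array. The DMSO array was the lowest of the 4 for 8 of the 9 class I genes (7 under 2 other scalings, which put TAP1 lowest with PHA665752), whereas it was the lowest for 25.7% of the 13074 genes well above background on every array. Without it, the range over the remaining 3 arrays was 0.07 for HLA-B, 0.17 for HLA-C, 0.15 for HLA-G, 0.03 for B2M and 0.13 for NLRC5 on the log2 scale. These ranges depend on the scaling: over the alternatives that keep the standing probe they reached 0.37, 0.28, 0.24, 0.28 and 0.30. In those genes the DMSO array stood below the next lowest array by 0.60, 0.56, 0.52, 0.65 and 0.88, and by no less than 0.28, 0.31, 0.30, 0.36 and 0.55 over those alternatives. The gap in TAP1 was only 0.04, which is under the noise between spots. HLA-E (0.46) and the standing probe of HLA-F (1.18) had wider ranges over the 3 arrays, and both were higher with the siRNAs than with PHA665752. The brighter HLA-F probe was instead slightly higher with PHA665752 than with sc siRNA (0.85 and 0.76 over DMSO), and its MET siRNA spot was not used. The brighter NLRC5 probe, read with its marked DMSO spot, was lower with PHA665752 than with DMSO (-0.14), so DMSO was not lowest there. For the genes lowest with DMSO, a higher level with PHA665752 and a lower level on the single DMSO array cannot be told apart.

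The neighbouring steps of the pathway differed in their medians. Of 8 peptide loading and trimming genes, 1 was past 2-fold higher with PHA665752 and none lower (median 0.25), against 13.1% higher over all genes. Under 4 alternatives none was, and with the 50th percentile the median was 0.007. The gene was TAPBPL, the tapasin-related peptide editor, with signals of 292 (DMSO), 526 (PHA665752), 306 (sc siRNA) and 352 (MET siRNA). Its ratios were 1.06 (0.82 with the 50th percentile), 0.16 and 0.32, and it was highest on the PHA665752 array. Tapasin itself (TAPBP), chosen after its values were seen, gave 0.74, 0.18 and 0.39. The list's median was -0.05 with MET siRNA and 0.28 in the control pair, with no gene past 2-fold in either.

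None of the 7 genes listed with the immunoproteasome, a form that changes the cleavage of peptides after interferon, was past 2-fold in any pair. With the 50th percentile 1 was past 2-fold lower with PHA665752. The list's medians were -0.06 with PHA665752, 0.00 with MET siRNA (below 0 under 2 of 9 alternatives) and 0.29 for sc siRNA over DMSO. With PHA665752 2 of the 7 were above 0, and the lowest were PSME3 (-0.80) and PSME2 (-0.73), named after their values were seen. The list was wider than the immunoproteasome subunits PSMB8, PSMB9 and PSMB10 (0.24 with PHA665752) and also held PSME1, PSME2, PSME3 and POMP. On chromosome 6 the genes lie in the order TAP2, PSMB8, TAP1, PSMB9, and the 2 proteasome subunits, also named after their values were seen, were close to TAP1 with the inhibitor and below it in the control pair. PSMB8 had ratios of -0.06, 0.03 and 0.68, and PSMB9 of -0.01, 0.01 and 0.72. TAP2, at one end of this block, was at -0.995 with the inhibitor while the other 3 genes lay between -0.06 and 0.04. The 11 constitutive proteasome core genes with a ratio, of 14 listed, were all below 0 with PHA665752 (median -0.50) and with MET siRNA (median -0.15), with none past 2-fold, and had a median of 0.06 in the control pair (below 0 under 2 alternatives). 

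Of 17 transcription factors and adaptors of class I genes, 15 had a ratio. None was past 2-fold with PHA665752 (median 0.15) or MET siRNA (median 0.05), and in the control pair 3 were past 2-fold higher and 1 lower (median 0.09), with each median below 0 under 1 of 9 alternatives. Among those higher there were IRF1, a direct activator of class I and TAP1, and IRF9, which carries the interferon signal, and the lower one was NFYA, a subunit of the factor that binds the Y box (-1.26, but -0.68 as the median over its probes). These factors are named after their values were seen. IRF1 had signals of 178 (DMSO), 167 (PHA665752), 361 (sc siRNA) and 524 (MET siRNA). Like TAP1, it was higher on both siRNA arrays than on both untransfected ones. Its ratios were 0.13, 0.49 and 1.28, and those of IRF9 were 0.99, 0.39 and 1.97. Beyond these factors, 32 of 34 interferon-stimulated genes with a ratio in the control pair, of 40 listed, were past 2-fold higher for sc siRNA over DMSO (median 3.18). Their summed signal, in multiples of the 75th percentile of the array, was 176 (DMSO), 184 (PHA665752), 927 (sc siRNA) and 1137 (MET siRNA). What part this interferon-stimulated signal had in the class I values of the siRNA arrays was not tested.

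With PHA665752 8 of 33 interferon-stimulated genes were past 2-fold higher and 1 (OAS3, named after its values were seen, at -1.11) lower, with a median of 0.48, against 13.1% and 8.04% of all genes. With the 50th percentile 5 were higher and 3 lower. With MET siRNA none of 34 was past 2-fold (median 0.23, but -0.07 at the lowest of 9 alternatives). The antiviral GTPase MX2 had signals of 244 (DMSO), 1298 (PHA665752), 9993 (sc siRNA) and 15190 (MET siRNA), with ratios of 2.63, 0.56 and 5.61. MX1 gave 1.55, 0.49 and 5.66, and the antiviral TRIM22 gave 1.69, 0.53 and 4.28. GBP2, an interferon-induced GTPase, differed from these, with ratios of 1.39, 0.91 and 0.24, so it was higher with MET siRNA and the inhibitor than with either control.

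Class II molecules, which present peptides from outside the cell to CD4+ T cells, differed from class I over the same arrays. Of 13 class II genes 9 were past 2-fold higher with PHA665752 (median 1.20, against 13.1% of all genes higher; 6 to 9 genes over the alternatives), none with MET siRNA (median 0.19) and none for sc siRNA over DMSO (median 0.04), the last 2 medians being below 0 under 1 alternative each. HLA-DMA, a class II peptide editor, had signals of 780.2 (DMSO), 2734 (PHA665752), 690 (sc siRNA) and 1002 (MET siRNA). It was highest with PHA665752 while both controls were close. None of the class I genes was highest with PHA665752, except that under quantile normalization HLA-B, HLA-C, HLA-G and B2M were. Its ratios were 2.02, 0.49 and 0.08. HLA-DOA, which restrains that editor, gave 2.12 with the inhibitor and HLA-DMB, its partner chain, 2.01, and HLA-DRA, the alpha chain of HLA-DR, gave 1.70. No test of the difference between the lists was possible. The HLA-DOA value was 0.98 when the median over its 2 probes was taken.

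Of the 5 other class I-like genes with a ratio, 1 (FCGRT) was past 2-fold higher with the inhibitor, against 13.1% of all genes. In the control pair HLA-L, named after its values were seen, was past 2-fold higher (1.03), against 2.89% of all genes. Its signals there were only 19.3 (DMSO) and 33.0 (sc siRNA), and it was inside the limit under quantile normalization and normexp. FCGRT encodes the heavy chain of the neonatal Fc receptor, which pairs with B2M to carry IgG. It had signals of 1473 (DMSO), 3035 (PHA665752), 1204 (sc siRNA) and 1594 (MET siRNA), and ratios of 1.26, 0.36 and -0.04, and like HLA-DMA it was highest with PHA665752. The class I pseudogene HLA-J, chosen after its values were seen, gave 0.63, 0.18 and 0.69, close to the heavy chains, and its probe may catch their transcripts.

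**Figure D4:**
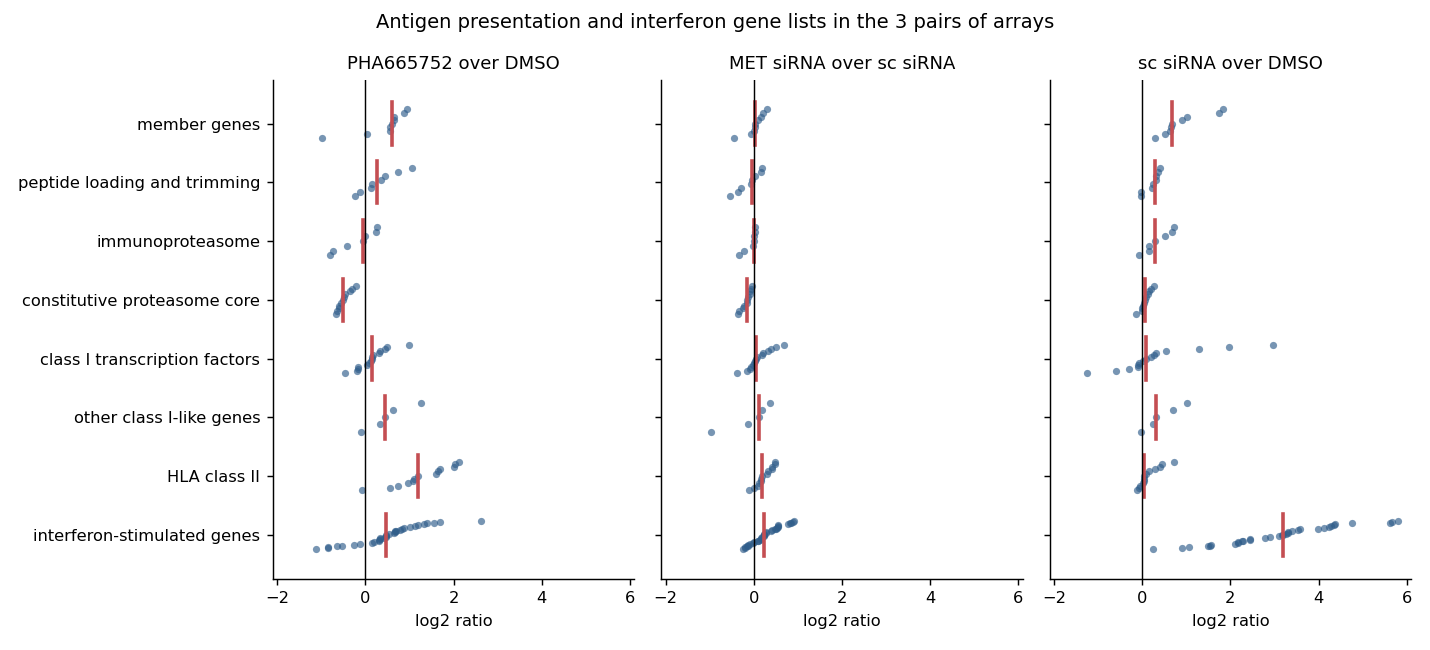
Log2 ratios of the genes of each list in the 3 pairs, with 1 point per gene and a bar at the median of the list. Class II genes had a median of 1.20 in the inhibitor pair, interferon-stimulated genes one of 3.18 in the control pair, and the class I genes had medians of 0.60, 0.03 and 0.66, of which the second fell below 0 under 2 other scalings.

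Lists outside antigen presentation were compared in the same way, against 13.1% of all genes past 2-fold higher and 8.04% lower with PHA665752. Of the mesenchymal markers with a ratio, 3 of 5 were past 2-fold higher with PHA665752: the collagen chain COL1A1 (3.32), fibronectin FN1 (1.96) and the matrix protein SPARC (1.33). COL1A1 was also past 2-fold with MET siRNA (1.54). Of 8 epithelial markers 1, the mucin MUC1, was past 2-fold higher with PHA665752 (1.70), and of 10 reference genes 2 were past 2-fold lower, among them the glycolytic enzyme PGK1 (-1.08). None of 8 leukocyte markers with a ratio was past 2-fold in the inhibitor pair (median 0.26). The part of these differences in the class I values was not tested.

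The genes whose 3 ratios were nearest to the medians of the 9 genes, by Euclidean distance over 13065 genes, were not antigen presentation genes. They were RASAL2, a Ras GTPase-activating protein, at a distance of 0.043, CHD2, a chromatin remodeller, at 0.050, LIPA, the lysosomal acid lipase, at 0.053, FNIP2, a folliculin partner, at 0.086, and MPV17, a mitochondrial inner membrane protein, at 0.094. RASAL2 had signals of 908 (DMSO), 1187 (PHA665752), 1244 (sc siRNA) and 1311 (MET siRNA), and ratios of 0.60, 0.03 and 0.71. The likeness rests on 4 arrays.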

How the data were processed

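RNA of 4 Hs746T cultures was labelled in 1 colour and hybridised to Agilent human 44K V2 arrays, 1 per condition on 1 slide. The authors deposited Feature Extraction output (version 11.5.1.1 per the file headers), whose processed signal is a linear intensity after background subtraction, with no normalization between arrays. The series matrix matched it within 0.05 for the 33128 probes spotted once and served as an alternative.

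Spots marked as outliers were left out (5.58% on the MET siRNA array and 1.69% to 2.21% on the others). Repeated spots were reduced to their mean log2 signal, and each array was centred on its own 75th percentile. No spot was saturated. A probe well above background on neither array of a pair gave no ratio, and on 1 array only a bound. Probes were named through RefSeq accessions (GRCh38.p14), which gave 25771 probes (75.5%) a symbol. The array's design is annotated on another build, so the coordinates printed are those of the promoter table alone.

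The pairs were PHA665752 over DMSO, MET siRNA over sc siRNA and sc siRNA over DMSO. With 1 array per condition no test was run. The class I genes, the 11 other gene lists and the motifs were chosen with earlier results of these data known. Genes named were all class I genes, up to 4 per list past 2-fold with PHA665752 or MET siRNA and well above background on all 4 arrays, and the 5 nearest genes. Exceptions are marked, and some genes that the rule names are not reported here. In all, 9 alternatives were tried. The ratio rules were tested on simulated data. Python 3.11.15, numpy 2.4.6, pandas 2.3.3, R 4.3.3, limma 3.58.1 (normexp and quantile normalization) and matplotlib 3.10.9 were used.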

Additional observations from a re-analysis of the deposited data

How the results depend on the processing

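TAP2 was past 2-fold lower with PHA665752, making 1 class I gene in place of 0, with the 50th percentile, the median of probes well above background, quantile normalization, outlier marks not used or the series matrix. For sc siRNA over DMSO 2 genes in place of 3 were past 2-fold higher with the 50th percentile (NLRC5 at 0.92), quantile normalization (0.92) and normexp (0.65). The median ratio of the class I genes with PHA665752 was 0.35 with the 50th percentile and 0.51 with the median of probes well above background. For sc siRNA over DMSO it was 0.56 with the 50th percentile and 0.58 with quantile normalization. For MET siRNA over sc siRNA it turned to -0.0023 with the 50th percentile and -0.27 with the median of probes well above background.

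Single probes turned sign in the MET siRNA pair with the median of probes well above background: HLA-B (A_33_P3379947) to -0.17, HLA-C to -0.22, HLA-E to -0.097, HLA-F to -0.0049, HLA-G to -0.15, B2M to -0.28, TAP1 to -0.27 and NLRC5 to -0.30. With the 50th percentile B2M turned to -0.018, TAP1 to -0.0023 and NLRC5 to -0.032, with normexp B2M to -0.0070 and with quantile normalization NLRC5 to -0.043. With PHA665752 over DMSO TAP1 turned to -0.21 with the 50th percentile and -0.059 with the median of probes well above background. The cause was not tested, beyond that these scalings move all genes of a pair together: the 50th percentile moved the median of all genes by -0.25 with PHA665752, and the median of probes well above background by -0.30 with MET siRNA. The share of calls that were higher went from 62.0% to 42.5% and from 74.5% to 40.2% under these. Probes well above background made up 61.1% on the MET siRNA array and 68.2% on the sc siRNA array, so their medians were taken over different probe sets. What part that had in the turned signs was not tested. Over the 9 alternatives, 2 medians and 15 ratios of single probes turned sign in all.

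No paired analysis was possible because each condition had 1 array, and leaving out an array leaves no pair. Signals near 100, as for NLRC5, lie closer to background than those of the heavy chains.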
